A study of Homo sapiens with 12 samples.

Results

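The genes of 9 laminin chains were followed in 12 RNA sequencing libraries of ARPE-19, a human cell line derived from the pigmented epithelium behind the retina (RPE). They are LAMA1, LAMA2, LAMA3, LAMA4, LAMA5, LAMB1, LAMB2, LAMB3 and LAMC1, and were chosen by their symbols, not by their values, from 40591 lines of the deposited table that carry a gene symbol. The libraries form 4 groups of 3. WT names ARPE-19 cells for which the labels give no open reading frame (ORF). In the GFP line the ORF is the reporter green fluorescent protein, and in the GSTA4 line it is the glutathione S-transferase of that name, which detoxifies products of lipid peroxidation. OSK was read as the reprogramming factors POU5F1, SOX2 and KLF4. The GFP, GSTA4 and OSK cells are stable lines, taken when the ORF had been expressed for 4 days, and no such day is given for WT. The labels do not say which promoter or vector drives the ORF, whether a line is 1 clone, or whether a group's 3 libraries were separate cultures, so p-values measure the spread between these libraries, which may be technical, and an ORF cannot be told apart from other differences between the lines.

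Laminins are large secreted proteins of the basement membrane, the thin matrix sheet on which epithelial cells sit. Each laminin is a cross of an alpha, a beta and a gamma chain. The alpha chain carries the C-terminal globular domains that bind integrins and dystroglycan on the cell, while the short arms of most alpha, beta and gamma chains join laminins into a network. RPE cells secrete laminins into the inner layer of Bruch's membrane, the sheet between the RPE and the choroid.

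OSK libraries held 3.99-fold more RNA of the alpha chain gene LAMA4 and 2.37-fold more of the beta chain gene LAMB2 than GFP libraries, and 4.41-fold less of the alpha chain gene LAMA2. The only gamma chain gene of the 9, LAMC1, stood in the order WT, GFP, GSTA4, OSK from low to high, with each step past the test. In the GSTA4 line LAMA2 was 1.66-fold higher than in GFP and LAMA3 was 1.54-fold lower. LAMA3 was highest in GFP, and its difference between GSTA4 and WT was not past the test. LAMB1 differed little between the groups, LAMB3 had low counts, and LAMA1 was at or near the lower limit of detection.

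The genes lie on 6 chromosomes (GENCODE release 29 on GRCh38, a build that the submitters' processing notes list, together with a mouse build). LAMA1 is at chr18:6941744-7117814 and LAMA3 at chr18:23689443-23956222. LAMA2 is at chr6:128883141-129516569 and LAMA4 at chr6:112108760-112254939. LAMB3 is at chr1:209614870-209652466 and LAMC1 at chr1:183023460-183145592. LAMB2 is at chr3:49121114-49133118, LAMB1 at chr7:107923799-108003255 and LAMA5 at chr20:62307955-62367312. Counts are per gene over its exons and do not separate isoforms, such as the long and short alpha 3 chains of LAMA3. Exons of LAMA5 share 244 bases with ADRM1, and those of LAMB1 share 70 bases with DLD, on the opposite strand. Whether reads were counted by strand is not given in the sources used here. For the 8 tested genes no single overlapping gene covered more than 2.71% of the exon bases.

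Since OSK carries transcription factors, the letters before the start sites are shown for the 5 genes that differed between OSK and GFP, of which LAMA4, LAMB2 and LAMC1 were higher and LAMA2 and LAMA3 lower. RefSeq's table of promoters (GRCh38.p14) held 10 start sites for 8 of the 9 genes, and the 250 bases before each start were searched. RefSeq and GENCODE do not use the same starts. GENCODE exons of the same gene took up 187 of these bases for LAMA4, 180 for LAMA3 and 68 for LAMB2, and 0 for LAMC1 and LAMA2. Only the longest stretch outside annotated exons is printed, in the direction of the gene, at chr6:112254723-112254785, chr3:49133119-49133300 (both minus strand), chr1:183023170-183023419, chr6:128882888-128883137 and chr18:23872770-23872839 (plus strand). Capitals mark matches on either strand to any of 5 motifs, the octamer ATGCAAAT bound by POU factors, the SOX core CATTGT, the KLF core GGGNGTGG, the GC box GGGCGG bound by SP and KLF factors, and the AP-1 site TGANTCA.
LAMA4: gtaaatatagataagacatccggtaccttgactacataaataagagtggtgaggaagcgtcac
LAMB2: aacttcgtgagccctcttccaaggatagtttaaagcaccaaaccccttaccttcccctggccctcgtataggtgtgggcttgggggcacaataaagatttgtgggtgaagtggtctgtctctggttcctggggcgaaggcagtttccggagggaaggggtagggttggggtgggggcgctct
LAMC1: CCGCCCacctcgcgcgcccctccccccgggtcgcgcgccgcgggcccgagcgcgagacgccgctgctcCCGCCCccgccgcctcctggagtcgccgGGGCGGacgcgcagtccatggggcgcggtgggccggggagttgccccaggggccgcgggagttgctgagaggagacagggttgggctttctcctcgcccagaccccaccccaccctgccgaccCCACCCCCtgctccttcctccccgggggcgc
LAMA2: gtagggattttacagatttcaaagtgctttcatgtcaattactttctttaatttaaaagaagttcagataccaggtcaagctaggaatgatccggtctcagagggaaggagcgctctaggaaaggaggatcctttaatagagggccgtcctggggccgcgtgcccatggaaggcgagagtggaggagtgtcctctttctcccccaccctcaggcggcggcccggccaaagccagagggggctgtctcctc
LAMA3: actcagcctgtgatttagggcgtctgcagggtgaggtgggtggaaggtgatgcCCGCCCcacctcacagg
In the full windows, LAMC1 had 3 GC boxes and 1 KLF core, and LAMA2 had no match to any of the 5. The LAMA3 window lies within the GENCODE bounds of the gene, far from its 5' end, which was not searched. LAMA3 had 1 GC box in the stretch shown and 2 AP-1 sites in its exon bases. The only match of LAMA4, a KLF core 21 bases before the RefSeq start, and the only match of LAMB2, a GC box 68 bases before it, also lie in bases that GENCODE counts as exon. Over all 10 start sites of the laminin genes, 8 held a GC box, 3 a KLF core, 2 an AP-1 site, 1 a SOX core and 0 the octamer. LAMB3 gave 3 of these windows, and overlapping ones among them share a GC box. By gene, 6 of 8 had a GC box. Of 35116 promoter windows of the same length, 42.6% held a GC box, 15.7% a KLF core, 6.57% an AP-1 site, 9.29% a SOX core and 1.63% the octamer. The AP-1 matches were in the LAMA3 window, which had 2, and in 1 of the 3 LAMB3 windows. The share of G and C was 79.6% in the LAMC1 window, 58.4% in that of LAMB2, 60.4% in that of LAMA3, 53.2% in that of LAMA2 and 48.4% in that of LAMA4, beside a median of 58% over all windows. A match of letters is a description, and whether any factor binds there was not measured.

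Total counts ran from 12630675 to 17045454 per library, and 3 reads, the most that a count of 0 allows, correspond to 0.177 to 0.239 CPM (reads scaled to a common library size). GFP replicate 1 had the fewest reads and the most detected genes, 27349 against 19488 to 22073 in the other 11 libraries. Its low counts are therefore given apart for LAMA1, LAMB4, LAMC3, HMCN2 and COL17A1, but not in the marker sums. The ORF genes matched the labels: GSTA4 had 396.4 to 430.7 CPM in the GSTA4 libraries and at most 22.5 elsewhere, and POU5F1, SOX2 and KLF4 had 622.7 to 948.7 CPM in the OSK libraries and at most 2.67 elsewhere. Of 13 RPE markers, 11 passed the filter on low counts, while RPE65 had a group mean of at most 0.495 CPM and TTR of at most 0.115. The summed level of the 13 was 2420 to 2660 CPM in WT, 2190 to 2520 in GFP, 1570 to 1650 in GSTA4 and 1390 to 1460 in OSK, with KRT8 and KRT18 at means of 1247 and 432 CPM in WT. Of the 11 tested, 8 were higher and 2 lower in GFP against WT, beside 22.2% of all genes past the threshold. In GSTA4 against GFP 1 was higher and 8 lower (29.2% of all genes), and in OSK against GFP 0 were higher and 11 lower (45.9%). Set against WT instead, 3 were higher and 6 lower in GSTA4 (38.6%), and 2 were higher and 5 lower in OSK (45.4%). RPE markers thus differed between the groups, as laminin genes did, though not always in the same direction. Their part in the laminin results was not tested. The 5 leukocyte markers summed to at most 1.82 CPM and the 6 pluripotency markers, POU5F1 and SOX2 not among them, to at most 4.49 CPM. Fibroblast markers summed to 3.43 to 143 CPM, most of it COL1A1, with LUM at 0 reads in all libraries. Endothelial markers summed to 23.6 to 94.5 CPM, nearly all of it KDR. In bulk RNA, fewer cells of a type and less RNA per cell cannot be told apart.

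**Figure D1:**
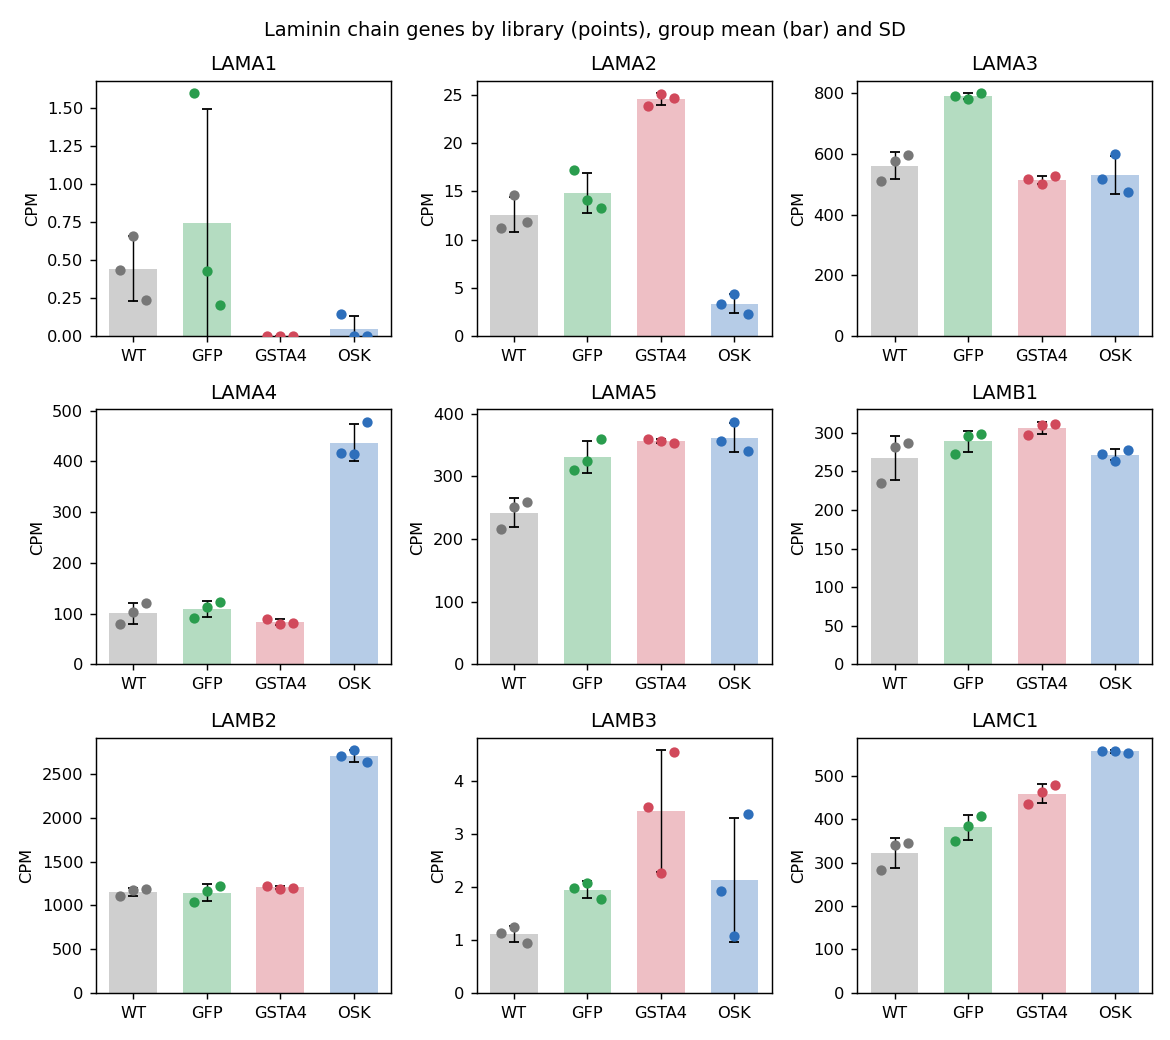
Level of each of the 9 laminin genes in CPM (vertical axis, linear, from 0, with its own scale per gene) in the 3 libraries of WT, GFP, GSTA4 and OSK. Points are libraries, bars are group means and whiskers are the SD. LAMA4 and LAMB2 stand apart in OSK, LAMA2 is highest in GSTA4 and lowest in OSK, LAMA3 is highest in GFP, and LAMC1 is lowest in WT and highest in OSK.

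Among the alpha chains, LAMA4 was highest in OSK. LAMA4 encodes the alpha 4 chain, which lacks the network-forming short arm and is best known from blood vessels and mesenchymal tissue. It stood at 417, 414 and 478 CPM in the OSK libraries, at 92.0, 113 and 123 CPM in GFP, at 89.8, 79.5 and 81.8 CPM in GSTA4 and at 79.0, 103 and 121 CPM in WT. The lowest OSK library was above all 9 others. The log2 fold change in OSK was 2.00 against GFP (SE 0.116, adjusted p 1.55e-11), 2.38 against GSTA4 (SE 0.118, adjusted p 8.05e-13) and 2.11 against WT (SE 0.117, adjusted p 5.09e-12). Below OSK the groups lay close together. GFP and WT differed by 0.12 on the log2 scale (95% interval -0.127 to 0.358, adjusted p 0.521). GSTA4 stood below GFP, at -0.39 on the log2 scale (SE 0.118, adjusted p 0.0176). That call was lost in DESeq2 (adjusted p 0.052) and without GFP replicate 2 (0.0544), GFP replicate 3 (0.0898), GSTA4 replicate 2 (0.0796) or GSTA4 replicate 3 (0.0653). Across the alternatives its adjusted p lay between 8.91e-06 and 0.0898.

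LAMA2 was lowest in OSK and highest in GSTA4. It encodes the alpha 2 chain, the laminin of muscle and peripheral nerve whose loss causes a congenital muscular dystrophy. Its level was 23.8, 25.1 and 24.7 CPM in GSTA4, 17.2, 14.1 and 13.3 CPM in GFP, 11.2, 14.6 and 11.9 CPM in WT and 3.34, 4.31 and 2.32 CPM in OSK. The GSTA4 libraries were all above, and the OSK libraries all below, every library of the other groups. GSTA4 exceeded GFP by 0.73 on the log2 scale (SE 0.143, adjusted p 0.00059) and WT by 0.97 (SE 0.144, adjusted p 1.87e-05). The log2 fold change in OSK was -2.14 against GFP (SE 0.177, adjusted p 3.53e-09), -2.87 against GSTA4 (SE 0.171, adjusted p 1.43e-11) and -1.90 against WT (SE 0.178, adjusted p 2.03e-08). GFP and WT overlapped, with a log2 fold change of 0.24 (95% interval -0.0688 to 0.553, adjusted p 0.264). The OSK values rest on 33 to 68 reads per library.

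LAMA3 was highest in the GFP control line. LAMA3 encodes the alpha 3 chain, which in skin and other epithelia joins the LAMB3 chain in the laminin that anchors hemidesmosomes. The GFP libraries held 790.3, 781 and 800.2 CPM, against 512, 577 and 596 CPM in WT, 518, 500.5 and 526 CPM in GSTA4 and 517, 599 and 476 CPM in OSK. All 3 GFP libraries were above the other 9, and the other groups overlapped one another. Relative to GFP, GSTA4 changed by -0.62 on the log2 scale (SE 0.074, adjusted p 1.89e-06) and OSK by -0.57 (SE 0.0739, adjusted p 1.97e-06). GFP exceeded WT by 0.49 (SE 0.0738, adjusted p 8.17e-05). GSTA4 and OSK are both set against the same GFP libraries here. Against WT neither passed the threshold, with log2 fold changes of -0.13 for GSTA4 (95% interval -0.28 to 0.0283, adjusted p 0.191) and -0.08 for OSK (95% interval -0.236 to 0.0717, adjusted p 0.39). Without WT replicate 1, which was the lowest WT library, the difference of GSTA4 from WT was -0.19 with an adjusted p of 0.0324, the lowest among its alternatives, which reached 0.485.

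LAMA5 was lowest in WT. LAMA5 encodes the alpha 5 chain, the most widespread alpha chain of adult basement membranes. It stood at 216, 251 and 260 CPM in WT, 309.8, 325 and 359 CPM in GFP, 359.6, 356 and 354 CPM in GSTA4 and 357, 387 and 341 CPM in OSK. Every WT library was below every other library, and the 3 lines with an ORF overlapped. Relative to WT, the log2 fold change was 0.45 in GFP (SE 0.0726, adjusted p 0.000162), 0.56 in GSTA4 (SE 0.0726, adjusted p 3.78e-06) and 0.58 in OSK (SE 0.0726, adjusted p 1.27e-06), all against the same WT libraries. GSTA4 and OSK differed from GFP by 0.10 (95% interval -0.0457 to 0.255) and 0.13 (95% interval -0.0247 to 0.276), neither past the threshold. Without GFP replicate 3 the OSK difference was 0.19 with an adjusted p of 0.0445, the lowest among its alternatives, which reached 0.507.

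LAMA1, the alpha 1 chain of the earliest embryonic basement membranes, was not tested because its counts were too low. It had 7, 9 and 4 reads in WT, 21, 6 and 3 in GFP, 0, 0 and 0 in GSTA4 and 2, 0 and 0 in OSK. A count of 0 in the GSTA4 libraries allows up to 0.193 to 0.226 CPM, and such floors cover counting error only. Of its 30 GFP reads, 21 were in GFP replicate 1. With no filter on low counts, edgeR gave LAMA1 an adjusted p of 0.000229 in GSTA4 against GFP and 0.00167 in GSTA4 against WT. In OSK it was 0.00469 against GFP and 0.0366 against WT. A fitted fold against 0 reads depends on the prior count and is not given. In GSTA4 against GFP the same fit gave LAMA3 an adjusted p of 2.55e-18, against 1.89e-06 with the filter, and LAMA4 8.91e-06, against 0.0176. Their folds were nearly the same, and LAMA5 hardly moved (0.304 against 0.303). The LAMA1 p-values are therefore not comparable with those of the tested genes, and no difference is read from them.

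The beta chains differed in how they moved. LAMB2, which encodes the beta 2 chain found at the neuromuscular junction, the kidney filter and the retina, had the highest level per kilobase of exon of the 9 in every group, as given further on. OSK libraries held 2713, 2777 and 2646 CPM of LAMB2, against 1038, 1169 and 1227 CPM in GFP, 1228, 1193 and 1200 CPM in GSTA4 and 1108, 1176 and 1194 CPM in WT. The lowest OSK library was above all 9 others, which overlapped one another. The log2 fold change in OSK was 1.24 against GFP (SE 0.0647, adjusted p 2.49e-12), 1.17 against GSTA4 (SE 0.0645, adjusted p 4.41e-12) and 1.23 against WT (SE 0.0646, adjusted p 2.55e-12). GSTA4 and GFP differed by 0.08 (95% interval -0.0569 to 0.209, adjusted p 0.407), and GFP and WT by -0.02 (95% interval -0.151 to 0.115, adjusted p 0.874). LAMB2P1, a pseudogene with 7 to 30 reads per library, was too small to move these values.

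LAMB1, the beta 1 chain of most embryonic and adult laminins, did not pass the F test over the 4 groups (adjusted p 0.0521). It held 235, 282 and 286 CPM in WT, 273, 296 and 298 CPM in GFP, 297, 310.4 and 312 CPM in GSTA4 and 272.5, 264 and 278 CPM in OSK. The GSTA4 libraries were all above those of WT and OSK, while GFP overlapped each of the other groups. The F test did pass in 8 of 18 alternatives, with adjusted p-values of 0.0057 to 0.0495. In single comparisons LAMB1 stood lower in OSK than in GSTA4, at -0.17 on the log2 scale (SE 0.0683, adjusted p 0.0408) and higher in GSTA4 than in WT by 0.20 (SE 0.0683, adjusted p 0.0279). The former call was lost in 10 of 19 alternatives, among them each of the 6 that leave out a GSTA4 or OSK library, at adjusted p-values of 0.0529 to 0.141. The latter was lost with only the libraries compared (adjusted p 0.0605), without GSTA4 replicate 2 (0.0867) or 3 (0.0929), and without WT replicate 1 (0.169), where its log2 fold change was 0.11. Against GFP the OSK difference was -0.09 (95% interval -0.232 to 0.0532), which passed only with library size alone as the scaling (-0.16, adjusted p 0.0331).

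LAMB3, the beta 3 chain that pairs with alpha 3 in skin, held few reads, 16 to 66 per library. Its level was 3.50, 2.25 and 4.54 CPM in GSTA4, 1.92, 1.08 and 3.38 CPM in OSK, 1.98, 2.08 and 1.77 CPM in GFP and 1.12, 1.25 and 0.944 CPM in WT. GSTA4 libraries were all above the WT and GFP libraries, and OSK overlapped every group. GSTA4 exceeded WT by 1.64 on the log2 scale (SE 0.373, adjusted p 0.00153). Against GFP the log2 fold change in GSTA4 was 0.82 (95% interval 0.0914 to 1.56), with an adjusted p of 0.0853, which lay between 0.0444 and 0.327 across the alternatives. In OSK the log2 fold change against GFP was 0.12 (95% interval -0.645 to 0.888), and without OSK replicate 3, the highest of that group, it was -0.38. Against WT the OSK difference was 0.94 (95% interval 0.124 to 1.75, adjusted p 0.056). This difference passed with no filter on low counts (0.939, adjusted p 0.0322), in DESeq2 (0.951, adjusted p 0.0462) and without OSK replicate 2 (1.27, adjusted p 0.0112). Among the other alternatives its adjusted p reached 0.425.

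LAMC1 encodes the gamma 1 chain, the partner of most alpha and beta chains. It rose from 282, 339.5 and 345 CPM in WT to 351, 385 and 407 CPM in GFP, 435, 462 and 478 CPM in GSTA4 and 557, 558 and 552 CPM in OSK. None of the 4 groups overlapped another. The steps on the log2 scale were 0.24 from WT to GFP (SE 0.0732, adjusted p 0.0215), 0.27 from GFP to GSTA4 (SE 0.073, adjusted p 0.0088) and 0.28 from GSTA4 to OSK (SE 0.0727, adjusted p 0.00342). From WT to OSK the log2 fold change was 0.79 (SE 0.0733, adjusted p 1.78e-08). The first step was lost without WT replicate 1 (log2 fold change 0.15, adjusted p 0.108), without GFP replicate 2 (adjusted p 0.0618), without GFP replicate 3 (0.088) and with the libraries of these 2 groups alone (0.0698), and its adjusted p lay between 0.00395 and 0.108 across the alternatives. Outside the 9 genes, LAMC3, another gamma chain gene, had 29 reads in GFP replicate 1 and 0 to 5 elsewhere. LAMB4, a beta chain gene, had 0 to 11, with 11 in GFP replicate 1 and 9 in WT replicate 1.

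**Figure D2:**
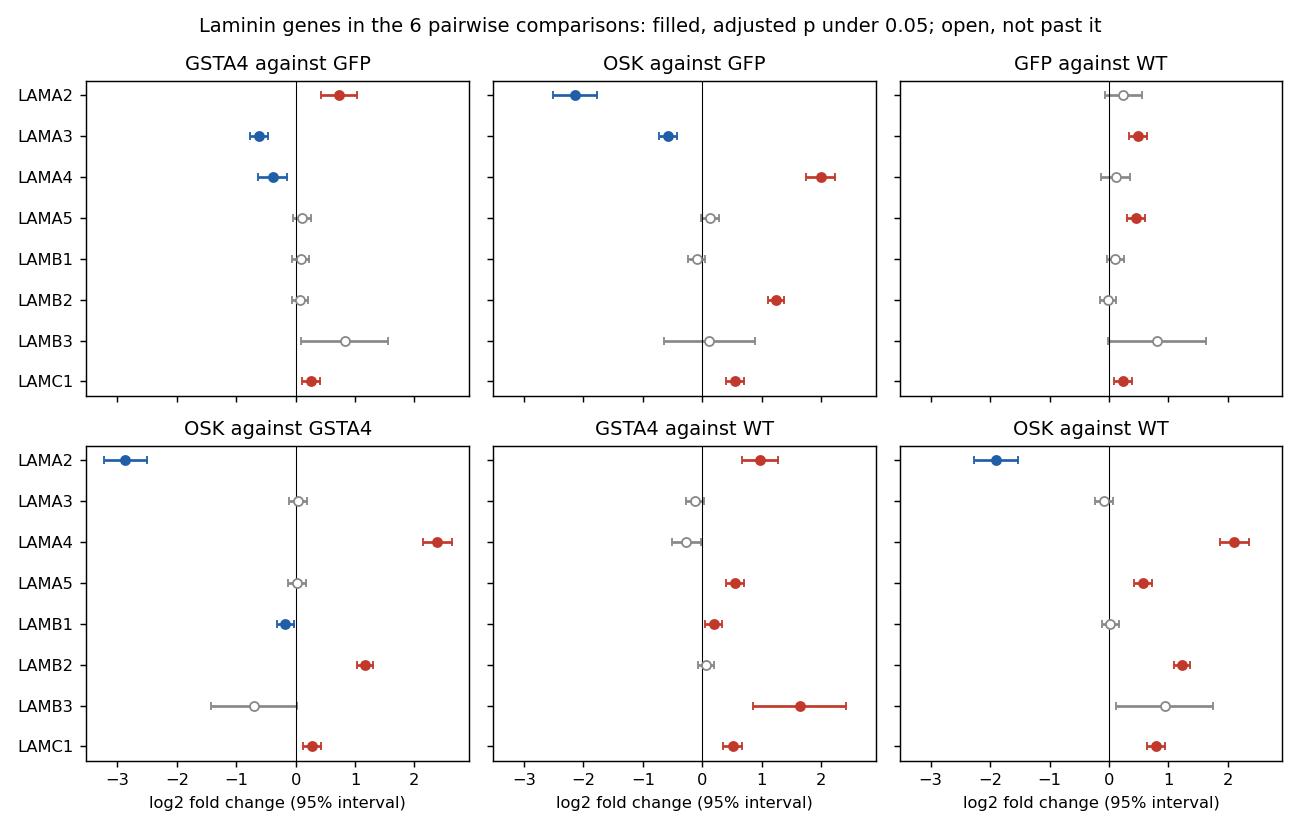
Log2 fold change (horizontal axis) with its 95% interval for the 8 tested laminin genes in the 6 pairwise comparisons. Filled points are past an adjusted p of 0.05 (red higher, blue lower in the group named first), open points are not. LAMA4 and LAMA2 lie farthest from 0 in the comparisons of OSK, at 2.38 and -2.87 in OSK against GSTA4, and LAMB3 has the widest intervals.

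The laminin genes were counted by comparison, beside the share of all tested genes past the threshold. In OSK against GFP 3 of the 8 tested genes were higher (LAMA4, LAMB2, LAMC1) and 2 lower (LAMA2, LAMA3), beside 45.9% of all 15179 tested genes (23.1% higher and 22.8% lower). Those are 3508 higher and 3454 lower genes, which became 2761 and 4180 when only library size was used for scaling. With that scaling they were 3156 and 4277 in OSK against GSTA4 and 2876 and 4114 in OSK against WT. The libraries of these groups did not overlap for 5 of the 8, and for 54.7% of all genes. In GSTA4 against GFP 2 were higher (LAMA2, LAMC1) and 2 lower (LAMA3, LAMA4), against 29.2% of all genes (14.7% higher and 14.6% lower), and 5 did not overlap, against 42.3%. Both comparisons use the same GFP libraries. In GFP against WT 3 were higher (LAMA3, LAMA5, LAMC1) and 0 lower, against 22.2% of all genes (11% higher and 11.2% lower). Here 4 did not overlap, against 34.6%. In OSK against GSTA4 3 were higher and 2 lower, against 47.8% (24.1% higher and 23.8% lower), and 5 did not overlap, against 58%. Against WT, 5 were higher in GSTA4 and 0 lower, beside 38.6% of all genes (19.7% higher and 19% lower), and 5 did not overlap, against 49%. In OSK against WT 4 were higher and 1 lower, against 45.4% (22.7% higher and 22.7% lower), and 5 did not overlap, against 53.5%. The F test over the 4 groups was passed by 7 of the 8, all but LAMB1, against 66.9% of all genes. The median log2 fold change of the 8 was 0.10 in GSTA4 against GFP, 0.12 in OSK against GFP, 0.24 in GFP against WT, 0.03 in OSK against GSTA4, 0.35 in GSTA4 against WT and 0.68 in OSK against WT, where the medians over all tested genes were 0.00824, -0.019, 0.00979, -0.0136, 0.00571 and -0.0102. With 8 genes, such a share moves by a large step with each gene, so nothing particular to the laminin genes is read from it.

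The make-up of the chains was then compared per length, as CPM per kilobase of annotated exon. Among the alpha chains, LAMA3 took 36.3% ± 3.02 (SD, n = 3) in OSK, against 58.8% ± 1.3 in WT, 61.3% ± 1.82 in GFP and 50.4% ± 0.681 in GSTA4. In the same order LAMA4 took 38% ± 3.97, 13.3% ± 1.54, 10.7% ± 1.21 and 10.4% ± 0.533. LAMA3 thus led the alpha chains per length in WT, GFP and GSTA4, while in OSK the ranges of LAMA3 (33.15% to 39.2%) and LAMA4 (34.4% to 42.2%) overlapped. With the longest coding transcript as the length, LAMA4 took 45% ± 4.18 in OSK and LAMA3 33.5% ± 3.16. LAMA5 took 35.8% ± 0.587 in GSTA4, 26% ± 0.162 in WT, 26.3% ± 1.03 in GFP and 25.4% ± 0.904 in OSK, so that its share was highest in GSTA4, in whose libraries it ran from 35.3% to 36.5%, against at most 27.5% in the others. The LAMA5 level itself did not differ past the threshold between GSTA4 and GFP or OSK. The summed alpha level per kilobase was 69.6 in GSTA4, against 88.0 in GFP, 99.5 in OSK and 65.2 in WT. LAMA2 took 3.4% ± 0.141 in GSTA4 and 0.321% ± 0.0859 in OSK.

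Among the beta chains LAMB2 took 92.1% ± 0.42 in OSK, 83.6% ± 0.942 in WT, 82.2% ± 0.58 in GFP and 82.1% ± 0.599 in GSTA4 (n = 3 each), and nearly all of the rest was LAMB1. Gene length cancels when 1 pair of genes is followed across groups. The log2 ratio of LAMB2 to LAMB1 was 3.32 ± 0.0736 (SD) in OSK, 2.12 ± 0.102 in WT, 1.98 ± 0.056 in GFP and 1.98 ± 0.0599 in GSTA4. The lowest OSK library, at 3.25, was above the highest of the other groups, at 2.24. For LAMA5 against LAMA4 the log2 ratio was -0.27 ± 0.199 in OSK, 1.28 ± 0.174 in WT, 1.61 ± 0.125 in GFP and 2.09 ± 0.0822 in GSTA4. The OSK libraries all lay below the other 9 in this ratio. Per kilobase of exon, LAMA4 stood above LAMA5 in OSK alone of the 4 groups, at a mean of 37.7 against 25.3 CPM per kilobase, where GFP had 9.44 and 23.2. Summed over each class, the level per kilobase in OSK was 99.5 ± 4.02 for alpha, 429 ± 8.41 for beta and 66.1 ± 0.379 for gamma chains, and in GFP 88.0 ± 3.26, 203 ± 15.8 and 45.3 ± 3.38. LAMB3, whose chain pairs with alpha 3, was scarce in all groups, at 0.236 to 0.732 CPM per kilobase (group means) where LAMA3 stood at 35.1 to 53.9.

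**Figure D3:**
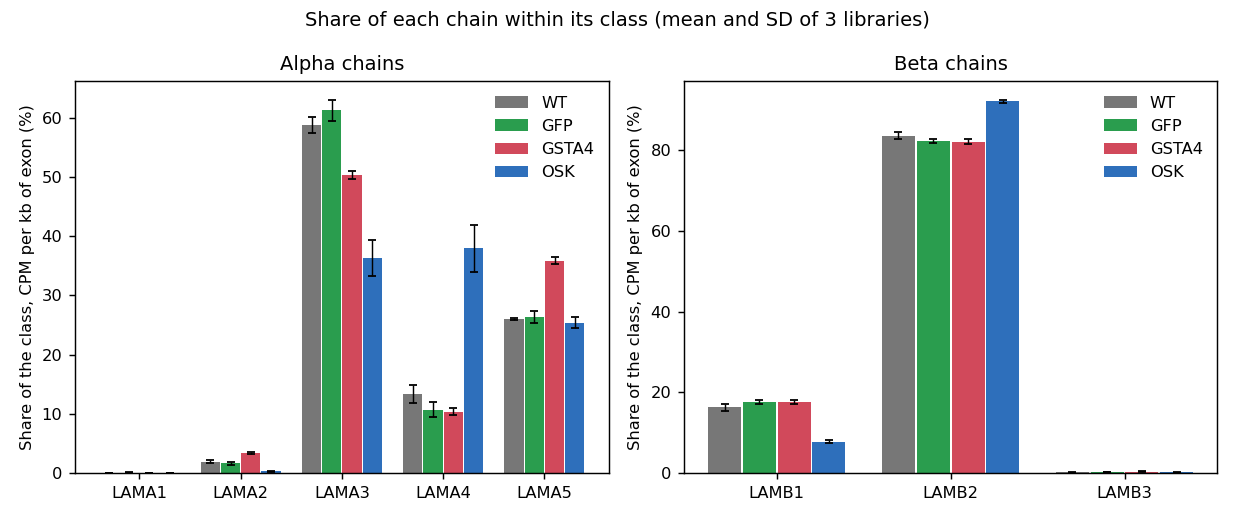
Share of each chain gene among the alpha chain genes (left) and the beta chain genes (right), in percent of the CPM per kilobase of exon of its class, by group. Bars are means of 3 libraries and whiskers the SD. In OSK the share of LAMA4 reaches 38% and that of LAMB2 92.1%, while LAMA5 is at 35.8% in GSTA4.

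Laminin works with other matrix proteins, and 26 partners in the basement membrane were counted, of which 20 passed the filter. In OSK against GFP 9 were higher and 5 lower, beside 45.9% of all genes past the threshold, with a median log2 fold change of 0.61. In GSTA4 against GFP 2 were higher and 12 lower, beside 29.2% of all genes, with a median of -0.44. The 3 with the lowest p-value in the F test were chains of collagen IV, the other network of the basement membrane. COL4A3 stood at 665, 657 and 648 CPM in OSK, 109, 106 and 107 CPM in GFP, 23.7, 21.4 and 24.8 CPM in GSTA4 and 128, 119 and 115 CPM in WT. OSK and GSTA4 thus lay on opposite sides of the controls for COL4A3, with log2 fold changes of 2.61 (SE 0.0617, adjusted p 7.32e-18) and -2.20 (SE 0.0683, adjusted p 4.77e-15) against GFP. COL4A4 changed the same way, by 0.74 in OSK and -1.64 in GSTA4, and COL4A5 was higher in both, by 1.01 and 0.31. COL4A1 and COL4A2, the chains of the common collagen IV network, were named after their values had been seen. Against GFP they were lower in both lines, COL4A1 by -1.32 in OSK (adjusted p 1.68e-06) and -0.68 in GSTA4 (adjusted p 0.00363), and COL4A2 by -0.75 (adjusted p 0.000485) and -0.44 (adjusted p 0.0362). Both were higher in GFP than in WT, by 1.44 and 1.07. Against WT the direction in GSTA4 turned, to 0.76 for COL4A1 (adjusted p 0.00112) and 0.63 for COL4A2 (adjusted p 0.00283), and OSK did not pass the threshold (0.12 and 0.32). Among the 12 lower genes, HMCN2 had 0 reads in GSTA4, and in GFP it had 2.205 CPM in replicate 1 and 0.287 and 0.0679 in the other libraries. With 1 library left out, from 10 to 15 of the partners passed in GSTA4 against GFP, where 14 did in the full fit. The lowest count came without GFP replicate 3, GSTA4 replicate 2 or GSTA4 replicate 3, and 13 passed without GFP replicate 1.

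Among these partners, 4 that bind laminin directly were singled out for that role after their values had been seen. They do not stand for the list. Of the 20 tested, 9 were higher and 5 lower in OSK than in GFP, with COL18A1 among the lower (-0.49, adjusted p 0.000142). The nidogens NID1 and NID2 link laminin to collagen IV. In OSK the NID1 level was 18.9, 16.4 and 21.0 CPM against 10.9, 8.03 and 9.17 CPM in GFP, which is 1.00 higher on the log2 scale (SE 0.154, adjusted p 1.87e-05), and NID2 rose by 0.75 (SE 0.0958, adjusted p 1.9e-06). Agrin, from AGRN, ties laminin to dystroglycan and rose by 1.00 in OSK against GFP (SE 0.0798, adjusted p 2.15e-09). Perlecan, from HSPG2, rose by 0.48 (SE 0.119, adjusted p 0.0025). Relative to GFP, the GSTA4 line had HSPG2 changed by -0.91 (adjusted p 6.49e-06) and AGRN by -0.28 (adjusted p 0.0117), while NID1 (-0.01) and NID2 (-0.10) did not pass the threshold.

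**Figure D4:**
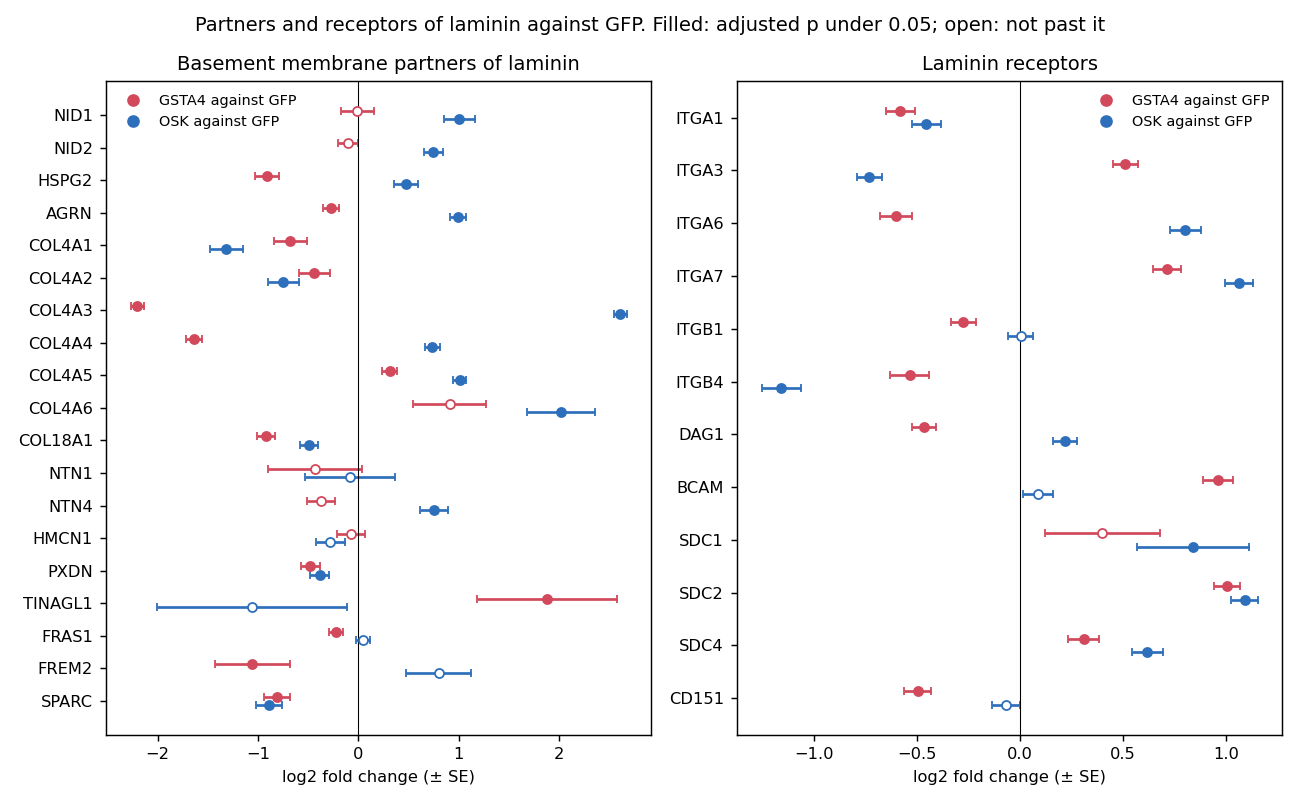
Log2 fold change against GFP (horizontal axis, whiskers are the SE) of the tested basement membrane partners (left) and laminin receptors (right) in GSTA4 (red) and OSK (blue). Filled points are past an adjusted p of 0.05. HMCN2 is left out because the GSTA4 libraries held no reads of it. COL4A3, at 2.61 in OSK and -2.20 in GSTA4, has the widest gap, and SDC2 lies near 1 in both.

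Of 13 receptors that bind laminin or modulate its binding, 12 passed the filter, and all 12 passed the F test, beside 66.9% of all genes. In OSK against GFP 6 were higher and 3 lower (45.9% of all genes past the threshold), and in GSTA4 against GFP 5 were higher and 6 lower (29.2% of all genes). The median log2 fold changes were 0.15 and 0.02. ITGA3 and ITGA6 encode the alpha subunits of the main laminin-binding integrins of epithelia. ITGA6 stood at 318, 333 and 348 CPM in OSK, 177.5, 193 and 202 CPM in GFP, 109, 134 and 135 CPM in GSTA4 and 114.5, 129 and 128 CPM in WT, while ITGA3 stood at 629, 621 and 643 CPM in OSK and 982, 1055 and 1105 CPM in GFP. In OSK against GFP ITGA6 rose by 0.80 (SE 0.0759, adjusted p 2.55e-08) and ITGA3 changed by -0.73 (SE 0.0609, adjusted p 3.91e-09), while the GSTA4 line had the opposite signs, -0.60 for ITGA6 (SE 0.0773, adjusted p 4.74e-06) and 0.51 for ITGA3 (SE 0.0606, adjusted p 1.64e-06). Against WT, ITGA6 in GSTA4 did not pass the threshold (0.02, adjusted p 0.845). SDC2, a heparan sulfate proteoglycan of the cell surface, rose in both lines, by 1.00 in GSTA4 (SE 0.0637) and 1.09 in OSK (SE 0.0637).

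Binding of laminin by dystroglycan needs a sugar polymer, matriglycan, that a chain of enzymes builds. Of 14 genes listed for its synthesis, 13 were tested. In GSTA4 against GFP 1 was higher and 5 lower (29.2% of all genes past the threshold), and in OSK against GFP 3 were higher and 2 lower (45.9% of all genes), with median log2 fold changes of -0.09 and 0.09. B4GAT1, which primes the polymer, stood at 80.3 ± 5.23 CPM (SD, n = 3) for GFP, 62.35 ± 5.77 for GSTA4, 116 ± 5.61 for OSK and 110.1 ± 14.7 for WT. It changed by -0.36 in GSTA4 (SE 0.0884, adjusted p 0.00371) and 0.53 in OSK (SE 0.0861, adjusted p 4.05e-05), both against GFP, and GMPPB, which makes the mannose donor, by -0.37 and 0.42. Against WT neither passed in OSK, with 0.07 for B4GAT1 (adjusted p 0.527) and 0.12 for GMPPB (adjusted p 0.336), and both were lower in GFP than in WT.

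Of 8 genes listed for hemidesmosomes, the plaques that hold epithelial cells to laminin with an alpha 3 chain, 5 were tested, 3 of which are also in the receptor list. COL17A1, KRT5 and KRT14 were too low for the test, with group means of at most 1.06 CPM. That mean is of COL17A1 in GFP, with 3.04 CPM in replicate 1 and 0.143 and 0 in the other libraries. In OSK against GFP 3 were higher and 1 lower, beside 45.9% of all genes past the threshold. PLEC, the linker to keratin, rose by 0.97 (SE 0.0844, adjusted p 7.96e-09), and ITGB4, the beta subunit of the hemidesmosomal integrin, changed by -1.16 (SE 0.0965, adjusted p 3.94e-09). Of these 5 genes 0 were higher and 4 lower when GSTA4 was set against GFP (29.2% of all genes), ITGB4 by -0.53 and PLEC by -0.24. ITGB4 stood at 842 CPM ± 101 in GFP, 788 ± 128 in WT, 581 ± 6.28 in GSTA4 and 377.5 ± 20.5 in OSK.

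The genes whose levels followed a laminin gene most closely over the 12 libraries were picked by Pearson's r of log2 CPM among 11049 genes with a mean of at least 5 CPM. The 12 points fall in 4 groups, so a high r reflects mainly how the group means lie. Where a single group stands far from the rest, as OSK does for LAMA4 and LAMB2, that group alone can give a high r, whatever the order of the others. For LAMA4 the closest were IQGAP1 (r = 0.993) and MIDN (0.991), and for LAMB2 they were JADE2 and IGFBP6 (0.995 each). IGFBP6 had 189.8 CPM ± 26.7 in OSK against 8.01 ± 2.07 in GFP. LAMC1 was closest to SDC4 (0.994), a syndecan of the receptor list, at 117 ± 12.9 CPM (WT), 141 ± 7.26 (GFP), 175 ± 14.8 (GSTA4) and 217 ± 5.25 (OSK), and to GALNT12 (0.987). LAMA2 was closest to PCNX1 and BCAT2 (0.986 each), LAMA3 to NHSL1 (0.954) and NAV3 (0.95), LAMA5 to FANCA (0.975) and PLGRKT (0.968), and LAMB1 to WSB2 (0.964) and ZNF710 (0.956). Between the laminin genes themselves, the r values largest in size were 0.974 for LAMA4 with LAMB2 and -0.951 for LAMA2 with LAMA4. Next came -0.902 for LAMA2 with LAMB2 and 0.858 for LAMA5 with LAMC1.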

How the data were processed

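Poly(A) RNA was extracted with TRIzol and made into NEBNext Ultra II libraries, per the labels' protocols. The authors deposited 1 table of unnormalized counts of reads for each gene, and STAR 2.7.1a and featureCounts 1.6.2 are named in the submitters' processing notes. Annotation release and strand setting are not given in the sources used here. Of 60605 lines, 20014 without a symbol (0.485% to 0.822% of reads) were left out. Testing used the quasi-likelihood F test of edgeR 4.0.16 (with limma 3.58.1, in R 4.3.3) on TMM-scaled libraries, for the 15179 genes that filterByExpr kept. All 12 libraries entered 1 fit without covariates, and two-sided p-values were adjusted by Benjamini-Hochberg over all tested genes within each of 6 contrasts and an F test, with 0.05 as the threshold. Standard errors are the log2 fold change over the root of F. Levels are CPM on TMM-scaled library sizes, and log2 CPM used a prior count of 2. The tests were checked on simulated counts. Exon lengths and positions came from GENCODE release 29. Genes named from each list were up to 3 with the lowest F-test p-value past the threshold, except items that are not reported here, and the 2 most similar genes were named per laminin gene with at least 5 CPM. The members and lists were chosen with earlier results of these data known. As alternatives, each library was left out in turn, and scaling (RLE, or library size alone), the filter (none, or 1 CPM on average), the tool (DESeq2 1.42.0), a replicate block and a fit on only the libraries compared were tried.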

Additional observations from a re-analysis of the deposited data

How the results depend on the processing

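The number of laminin genes past the threshold stayed within 1.5 times its reported value in each of the 6 comparisons and the F test under every alternative run, and so did the number of all genes. It ran from 3 to 6 in GSTA4 against GFP, 5 to 6 in OSK against GFP, 2 to 3 in GFP against WT, 4 to 5 in OSK against GSTA4, 4 to 7 in GSTA4 against WT, 5 to 7 in OSK against WT and 7 to 8 in the F test. Without GFP replicate 1 the numbers were 4, 5, 3, 5, 5, 5 and 8 in that order. With no filter on low counts LAMA1 was counted too, so that run covers 9 genes rather than 8. In that run LAMA1 passed in GSTA4 and in OSK against both GFP and WT. The 6 in GSTA4 against GFP came from it. Of 56 results of single genes, 44 kept their side of the threshold in all alternatives, among them all those of LAMA2 and LAMB2 and the 3 of LAMA4 in OSK. Small differences that were not past the threshold changed sign in 10 cases, and the cause was not tested. With library size alone, OSK against GSTA4 gave -0.0196 for LAMA3 and -0.0423 for LAMA5, and OSK against WT gave -0.0454 for LAMB1. When 1 library at a time was left out, OSK against GSTA4 ran from -0.0512 (without OSK replicate 2) to 0.128 for LAMA3 and from -0.0303 (without OSK replicate 2) to 0.0734 for LAMA5. OSK against GFP ran from -0.376 (without OSK replicate 3) to 0.453 for LAMB3, and OSK against WT from -0.0651 (without WT replicate 1) to 0.0744 for LAMB1. GFP against WT ran from -0.0387 (without WT replicate 1) to 0.268 for LAMA4 and from -0.0696 to 0.0466 (without GFP replicate 1) for LAMB2, which was 0.000544 without WT replicate 3.

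Libraries with the same replicate number share only that number in the labels. Correlations of their deviations from the group means ran from -0.0193 to 0.153, above 0.1 in 3 of 18 pairs, and 6 of the 12 libraries correlated best with their own number. With the number as a replicate block, all genes past the threshold were 4734 rather than 4439 in GSTA4 against GFP and 7269 rather than 6962 in OSK against GFP, and the laminin genes past it were 4 and 5, as without the block. The block changed 2 calls of single genes: LAMA4 passed in GSTA4 against WT (-0.25, adjusted p 0.033) and LAMB1 passed the F test (adjusted p 0.0174). Depth limits LAMA1 and LAMB3, which rest on 0 to 21 and 16 to 66 reads per library.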

Other observations

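Noncoding lines next to the laminin genes held few reads. LAMA4-AS1, a long noncoding RNA named for LAMA4, had 11, 11 and 11 reads in the OSK libraries, 1, 4 and 6 in GFP, 2, 5 and 1 in GSTA4 and 1, 1 and 3 in WT. The OSK libraries, which also held the most LAMA4, were above the other 9. Without a stated counting strand, its reads and those of LAMA4 cannot be told apart where they overlap. LAMC1-AS1 had 4 to 18 reads per library and LAMA5-AS1 had 0 to 6, with no group apart from the others.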
